A study of Arabidopsis thaliana with 12 samples.

Results

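Expansins and the endoglucanases of glycoside hydrolase family 9 (GH9) are the cell wall proteins described here, in whole Arabidopsis thaliana seedlings of 2 genotypes grown at 2 temperatures. Members were taken from the array annotation as the probe sets whose single gene symbol begins with EXPA, EXPB, EXLA, EXLB or GH9. The rule found 33 probe sets for 33 genes, out of 22746 probe sets tested. They comprised 10 alpha-expansins (EXPA), 4 beta-expansins (EXPB), 3 expansin-like A genes (EXLA), 1 expansin-like B gene (EXLB), 2 GH9 genes of class A, 10 of class B and 3 of class C. A RefSeq gene table lists 62 genes of these families, and those outside the rule, EXPA1, EXPA2, EXPA5, GH9A1 and GH9B1 among them, were not analysed here. They include EXLB2, whose probe set is annotated by its locus name AT4G30380 and so does not match the prefixes.

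All seedlings were 10 days old, of the Columbia background, and grown on agar plates with MS salts in continuous white light of 80 micromoles per second and square metre. The 4 groups were wild type (WT) at 16C, WT at 23C, the mutant pft1-1 at 16C and pft1-1 at 23C, with 3 biological replicates each, lettered A, B and C. PFT1 encodes MED25, a subunit of Mediator, the complex that passes signals from transcription factors to RNA polymerase. The mutant is represented by a single allele, and PFT1 had no named probe set, so the mutation could not be checked on the arrays.

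Plant cells enlarge when turgor stretches a wall that can yield. Expansins loosen the contacts between cellulose and the other wall polymers without cutting them, and act best in acidic walls. Alpha-expansins are the classical loosening proteins of growing organs, beta-expansins form a related branch, and the expansin-like proteins share the expansin fold but have no established loosening activity. GH9 enzymes cut beta-1,4-glucans. Class A enzymes are anchored in membranes and include KORRIGAN, which takes part in cellulose synthesis, class B enzymes are secreted, and class C enzymes carry a carbohydrate-binding module in addition.

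Values are log2 expression per probe set, so a difference of 1 is a 2-fold difference. Array medians ran from 5.07 to 5.25. The 4 replicates with the letter C differed from the other 8 in their spiked-in poly-A controls, which averaged 4.18 to 7.96, against 2.45 to 2.52 for letters A and B. The signal at the 3' end of the Arabidopsis control transcripts exceeded that at the 5' end by 3.52 to 4.53 on letter C and by 2.64 to 3.07 on the others, and the largest gap was on pft1-1 at 23C replicate C. This gap, which grows as RNA is shortened, averaged 3.15 in WT at 16C, 3.12 in WT at 23C, 2.94 in pft1-1 at 16C and 3.34 in pft1-1 at 23C, and its part in the results was not tested. The light-harvesting gene LHCB4.1, the Rubisco activase gene RCA and the root beta-glucosidase gene PYK10 were all high, from 11.4 to 14.8 on every array, so RNA of shoots and of roots was present, and the seed oleosin OLEO3 was near the array background.

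Many family members gave little signal in these seedlings. The lower quartile of all values was 2.52, and 12 members had group means below it in all 4 groups: EXPA16, EXPA21, EXPA24, EXPB5, GH9A3, GH9A4, GH9B5, GH9B6, GH9B12, GH9B16, GH9B17 and GH9C3. Their values lay between 1.99 and 2.62. Of all probe sets 20.3% were below the quartile in all 4 groups. Another 6 members (EXPA7, EXPA18, EXPB2, EXLA3, EXLB1 and GH9C1) were below it in some groups, and 15 were above it throughout. Probe sets differ in how well they bind, so the level of a gene is compared here only with its own level in other groups.

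**Figure D1:**
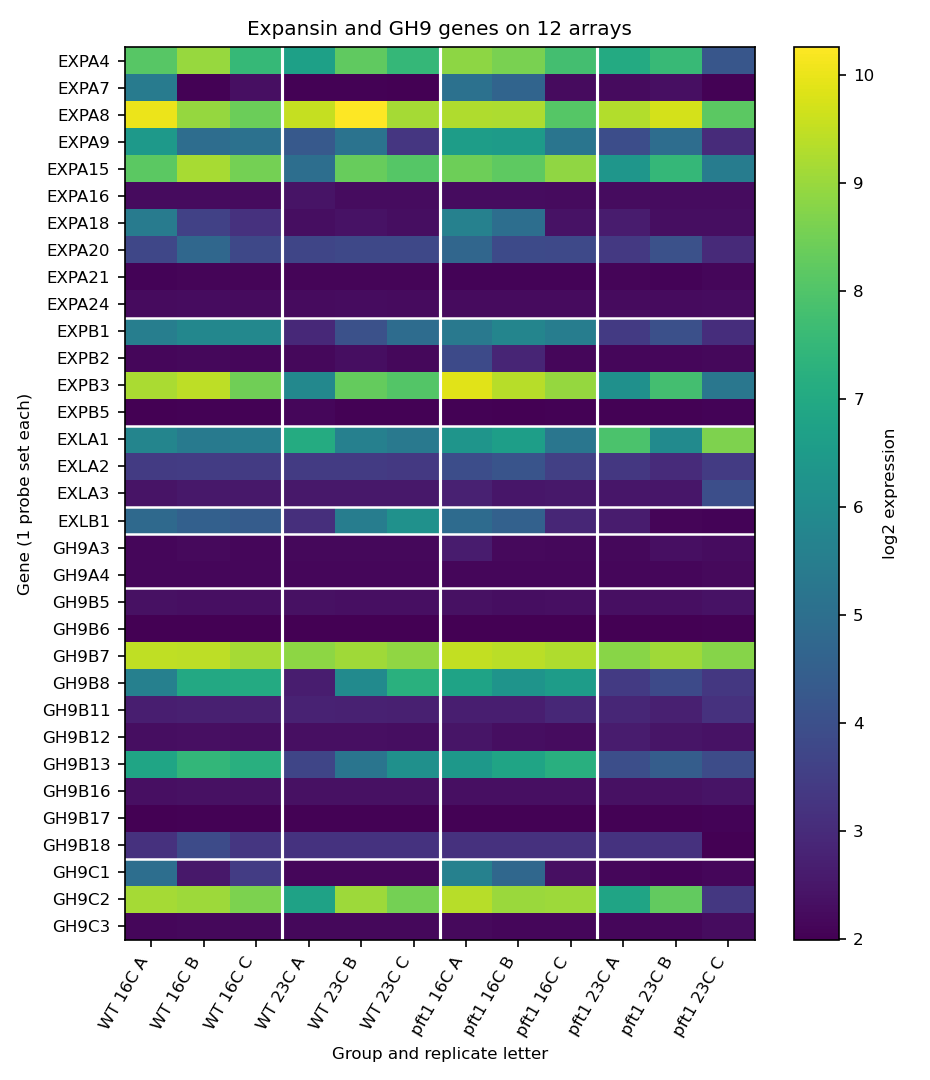
Heat map of log2 expression for the 33 expansin and GH9 genes (rows, grouped by subfamily) on the 12 arrays (columns, by group and replicate letter). The 12 members with values of 1.99 to 2.62 form the uniformly dark rows, and the EXPA7, EXPA18 and GH9C1 rows brighten on the same 3 arrays.

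Between 16C and 23C, averaged over the genotypes, 8 of the 33 genes fell at 23C and 0 rose. They were the beta-expansins EXPB1 and EXPB3, the alpha-expansins EXPA9 and EXPA18, the expansin-like gene EXLA2, the secreted endoglucanases GH9B7 and GH9B13, and the class C enzyme GH9C1. The falls ran from 1.26-fold for EXLA2 to 5.38-fold for GH9B13. The other 25 did not pass the test. A gene was called where the limma p, adjusted by Benjamini-Hochberg for the 22746 probe sets, was under 0.05. By the same rule 23.7% of all probe sets were called and 12% were called lower, against 24.2% of the members, all of them lower. The share called is thus close to the background, and all 8 calls point one way. Temperatures did not overlap for 5 members that were lower at 23C (GH9B13, EXPB1, EXPB3, GH9B7 and GH9C1), against 6.8% of all probe sets, and for 1 that was higher (EXPA16, by 0.05), against 5.5%. The median difference of the 33 members was -0.33, against 0.04 over all probe sets. This median is the value of a single gene, GH9B18, and not a shift common to the members. Of the differences, 15 were positive (45.5%, against 63.3% of all probe sets) and 18 negative. Within WT the members' median was 0.005, and within pft1-1 it was -0.40. Leaving out single arrays gave 4 to 10 calls, with 4 when replicate A of either genotype at 16C, pft1-1 replicate B at 16C or pft1-1 replicate A at 23C was left out, and 5 without replicate C of either genotype at 23C. A fall in whole seedlings can reflect fewer cells of a type or less RNA per cell, which cannot be told apart here.

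GH9B13, a secreted class B endoglucanase, had the largest fall among the called members. It read 6.85, 7.48 and 7.19 in WT at 16C (replicates A, B and C) and 3.70, 5.20 and 6.14 in WT at 23C. In pft1-1 it read 6.40, 6.82 and 7.19 at 16C and 3.99, 4.42 and 3.93 at 23C. All 6 arrays at 16C were above all 6 at 23C, and the 3 WT arrays at 23C were spread widely while the pft1-1 arrays lay close together. The average difference was -2.43 (limma SE 0.37, adjusted p 0.0020).

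Among the beta-expansins, EXPB1 and EXPB3 both fell. EXPB1 read 5.52, 5.81 and 5.86 in WT at 16C and 2.94, 4.04 and 4.92 in WT at 23C. In pft1-1 it read 5.32, 5.77 and 5.48 at 16C and 3.39, 4.02 and 3.09 at 23C. The 16C arrays varied by little and all exceeded the 23C arrays, and the average difference was -1.90 (limma SE 0.31, adjusted p 0.0028), a 3.72-fold fall. EXPB3 read 9.20, 9.45 and 8.48 in WT at 16C and 5.86, 8.30 and 8.04 in WT at 23C. In pft1-1 it read 9.89, 9.39 and 8.96 at 16C and 6.14, 7.78 and 5.28 at 23C. The temperatures did not overlap, although WT replicates B and C at 23C came close to the lowest 16C array. Its average difference was -2.33 (limma SE 0.53, adjusted p 0.0133), a 5.02-fold fall. The other beta-expansins, EXPB2 and EXPB5, were near background at 23C, and neither was called.

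GH9B7 showed a small fall with little spread. Its group means were 9.35 ± 0.18 in WT at 16C, 8.95 ± 0.12 in WT at 23C, 9.40 ± 0.12 in pft1-1 at 16C and 8.88 ± 0.18 in pft1-1 at 23C (SD, n = 3 each). The lowest array at 16C read 9.14 and the highest at 23C read 9.09, so the temperatures were separate by a narrow margin. The average difference was -0.46 (limma SE 0.09, adjusted p 0.0054), a 1.37-fold fall. GH9B7, GH9B13, EXPB1 and EXPB3 kept their call in this comparison when any single array was left out, with adjusted p up to 0.0167, 0.0070, 0.0093 and 0.0356.

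The other 4 falls rested on fewer arrays. EXPA9 read 6.44, 4.96 and 5.08 in WT at 16C, 4.30, 5.14 and 3.31 in WT at 23C, 6.59, 6.52 and 5.22 in pft1-1 at 16C, and 3.94, 4.94 and 3.01 in pft1-1 at 23C. WT replicate B was as high at 23C as at 16C. The average difference was -1.69 (limma SE 0.47, adjusted p 0.0305), and the call was lost in 7 of the 12 fits that left out an array, with adjusted p up to 0.0706. EXLA2 fell by 0.33 on the log2 scale (limma SE 0.10, adjusted p 0.0479) and lost its call in 10 of the 12. The average joins a difference of -0.04 in WT (adjusted p 0.940) and -0.63 in pft1-1. The call was also lost after renewed quantile normalisation (-0.21, limma adjusted p 0.158) and after centring on array medians (-0.25, adjusted p 0.110). With the replicate letter as a block its adjusted p was 0.0697, while EXPA15 (0.0478) and GH9B8 (0.0397) were then called lower.

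**Figure D2:**
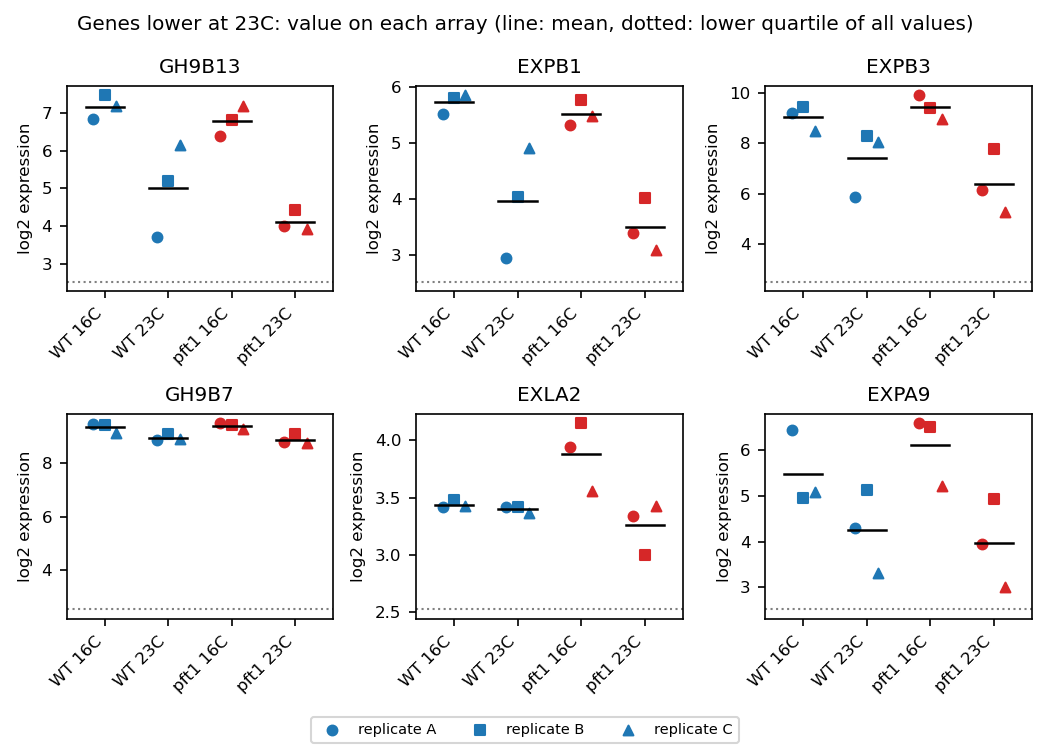
Log2 expression on each array for GH9B13, EXPB1, EXPB3, GH9B7, EXLA2 and EXPA9, by group (WT in blue, pft1-1 in red), with the replicate letter as the marker, the group mean as a line and the lower quartile of all values (2.52) dotted. GH9B13, EXPB1, EXPB3 and GH9B7 are lower on all 23C arrays than on any 16C array, while EXLA2 is raised on the pft1-1 arrays at 16C.

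EXPA18 and GH9C1 completed the called genes, and with EXPA7 they shared the 3 arrays with the highest values. The same 3 arrays were also the highest for EXPA9, so this trait was not particular to these genes. EXPA7 and EXPA18 are expansins of root hair cells, and GH9C1 is an endoglucanase known from root hairs. EXPA7 read 5.42 in WT at 16C replicate A, 5.07 in pft1-1 at 16C replicate A and 4.65 in pft1-1 at 16C replicate B, and 2.01 to 2.34 on the other 9 arrays. EXPA18 read 5.42, 5.64 and 4.98 on those 3 arrays, 3.60 and 3.15 on WT at 16C replicates B and C, and 2.29 to 2.63 on the remaining 7. GH9C1 read 4.99, 5.62 and 4.75 on the 3 arrays, 2.53 and 3.46 on WT at 16C replicates B and C, and 2.06 to 2.32 elsewhere. WT at 16C replicates B and C were at background for EXPA7 and above it for EXPA18, while GH9C1 was at the lower quartile on B and above it on C. All 6 arrays at 23C were near or below the lower quartile. Replicate C of pft1-1 at 16C was near background for all 3.

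Averaged over genotypes EXPA18 fell by 1.83 on the log2 scale (limma SE 0.57, adjusted p 0.0470) and GH9C1 by 1.82 (SE 0.57, adjusted p 0.0485). EXPA7 differed by -1.51 (SE 0.66) and was not called, at adjusted p 0.133. Because the 23C values lie at the array background, these differences are limited from below by that background. EXPA18 and GH9C1 each lost their call in 10 of the 12 fits that left out an array, with adjusted p up to 0.102 and 0.103. PYK10, the only root marker measured, read 13.24, 12.92 and 12.98 in WT at 16C, 12.29, 12.79 and 12.33 in WT at 23C, 13.15, 12.84 and 12.34 in pft1-1 at 16C, and 11.86, 12.28 and 11.40 in pft1-1 at 23C. It fell by 0.75 on the log2 scale on average (limma SE 0.19, adjusted p 0.0181), and its part in the lower values of the root hair genes was not tested.

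**Figure D3:**
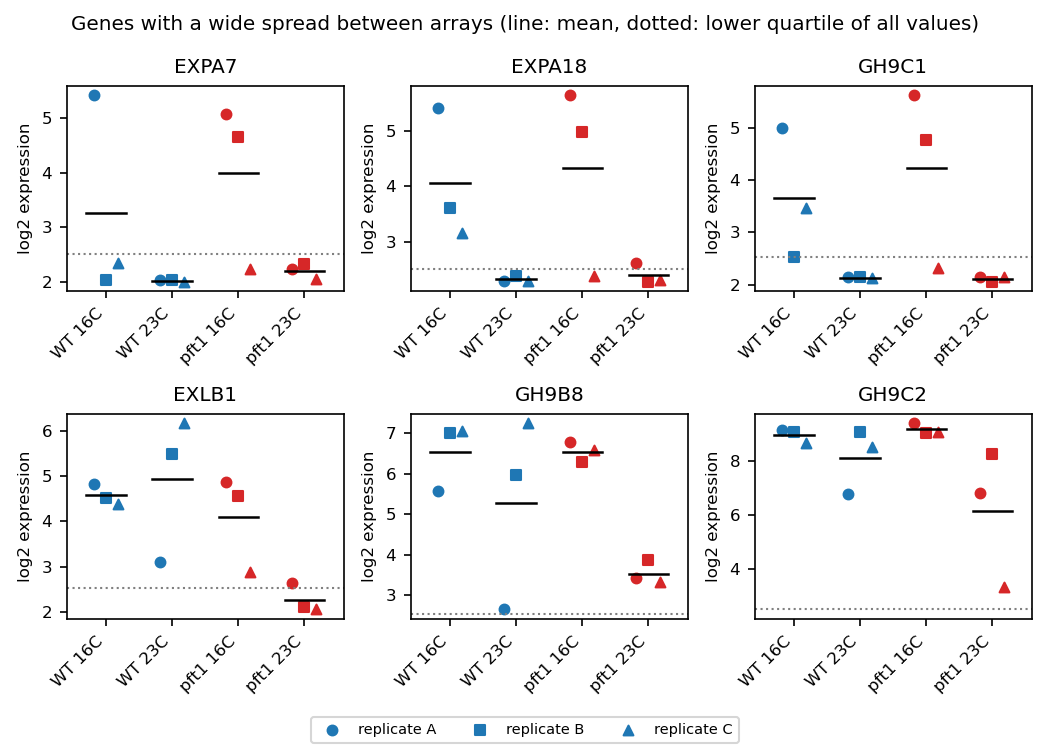
Log2 expression on each array for the root hair genes EXPA7, EXPA18 and GH9C1 and for EXLB1, GH9B8 and GH9C2, which vary widely between replicates, with markers, lines and dots as in the plot of called genes. The 3 root hair genes are high on WT at 16C replicate A and on pft1-1 at 16C replicates A and B, and EXLB1 lies between 2.06 and 2.63 on all 3 pft1-1 arrays at 23C.

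The remaining expansins and endoglucanases with clear signal differed less regularly. The alpha-expansin EXPA15 averaged 8.62 ± 0.50 in WT at 16C, 7.14 ± 1.87 in WT at 23C, 8.51 ± 0.35 in pft1-1 at 16C and 6.44 ± 1.02 in pft1-1 at 23C (SD, n = 3). It was just outside the threshold (log2 difference -1.77, limma SE 0.60, adjusted p 0.0628), as was GH9B8 (-2.14, SE 0.69, adjusted p 0.0530). EXPA8 was the clearly expressed alpha-expansin with a positive difference. It averaged 9.13 ± 0.81, 9.64 ± 0.57, 8.87 ± 0.68 and 9.07 ± 0.81 in the 4 groups in the same order, within the spread of the replicates (0.36, limma SE 0.39, adjusted p 0.521). EXLA1, an expansin-like gene, differed by 0.97 (SE 0.50, adjusted p 0.198), and its highest values, 7.91 and 8.66, were on pft1-1 at 23C replicates A and C. EXLA3 read 2.41 to 2.74 on 11 arrays and 3.97 on pft1-1 at 23C replicate C. EXPA20 ranged from 2.99 to 4.74 and GH9B11 from 2.69 to 3.16, and none of these was called. Both class A genes measured, GH9A3 and GH9A4, were among the near-background members.

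Within WT alone, 0 of the 33 genes were called between 23C and 16C in limma, where 4.89% of all probe sets were called. At an unadjusted p under 0.05 there were 3 members, all lower (GH9B13, EXPB1 and GH9B7), against 18.7% of all probe sets. GH9B13 was nearest to the threshold, with a difference of -2.16 (SE 0.52, adjusted p 0.0502), followed by EXPB1 at -1.77 (SE 0.44, adjusted p 0.0552) and GH9B7 at -0.39 (SE 0.12, adjusted p 0.112). With the replicate letter as a block these 3 were called, at limma adjusted p of 0.0278, 0.0411 and 0.0426. Groups did not overlap for 6 members that were lower at 23C, those 3 with EXPB3, EXPA18 and GH9C1, and for 2 that were higher, EXPA16 and EXPB5. Over all probe sets these shares were 10.7% lower and 15.3% higher. EXPA16 and EXPB5 are in the near-background range, with differences of 0.08 and 0.04. Replicate A at 23C held the lowest WT value of GH9B13, EXPB1, EXPB3, EXPA15, GH9B8 and GH9C2, and without it the WT count stayed at 0, while without replicate C at 23C it was 2.

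Within pft1-1, 5 of the 33 genes fell at 23C and 0 rose: GH9B13, EXPB1, EXPB3, GH9B7 and EXLA2. Of all probe sets 17.7% were called in this comparison and 9.27% were called lower, against the 5 members of 33. GH9B13 fell by 2.69 on the log2 scale (limma SE 0.52, adjusted p 0.0090), a 6.47-fold fall, and EXPB3 by 3.02 (SE 0.76, adjusted p 0.0254), an 8.09-fold fall. EXPB1 fell 4.07-fold (adjusted p 0.0141), EXLA2 1.54-fold (adjusted p 0.0202) and GH9B7 1.43-fold (adjusted p 0.0191) in the same limma fit. Groups did not overlap for 12 lower members, against 15.9% of all probe sets, and for 3 higher ones, against 32%. The 3 were EXPA16, EXPA24 and GH9B16, all near background with differences of 0.04 or less. The 12 were the called 5 with EXPA4, EXPA9, EXPA15, EXLB1, GH9B8, GH9C1 and GH9C2.

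Several of the largest differences in pft1-1 did not pass. GH9B8 averaged 6.55 ± 0.25 at 16C and 3.53 ± 0.29 at 23C in pft1-1 (SD, n = 3), without overlap. In WT at 23C its arrays read 2.64, 5.96 and 7.25, and this spread enters the shared error of the main fit. The pft1-1 difference was -3.02 (limma SE 0.98, adjusted p 0.0644). With only the pft1-1 arrays fitted, GH9B8 was called (limma SE 0.20, adjusted p 0.0054). GH9C2, a class C enzyme, read 9.39, 9.01 and 9.06 at 16C and 6.83, 8.27 and 3.35 at 23C in pft1-1 (difference -3.01, limma SE 1.08, adjusted p 0.0896). Its replicate C at 23C, the array with the largest 3' to 5' gap, stood well below the others. EXPA4, an alpha-expansin, read 7.04, 7.56 and 4.19 in pft1-1 at 23C, with the same array lowest, and 7.79 to 8.84 at 16C (difference -2.14, limma SE 0.83, adjusted p 0.111). With the replicate letter as a block EXPA9 (adjusted p 0.0171) and GH9B8 (0.0478) joined the 5 called genes in limma.

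The pft1-1 count depended on single arrays. It was 2 without pft1-1 replicate A or B at 16C or replicate C at 23C, 3 without replicate A at 23C, 8 without replicate B at 23C (with EXLA1 called higher) or without WT replicate A at 23C, and 9 without pft1-1 replicate C at 16C. GH9B13 was called in all 12 of these fits, with limma adjusted p up to 0.0347. With letters A and B alone, which drops the 4 arrays that stood apart, 1 member was called in pft1-1 (EXLA2). The differences of the other 4 were of similar size there: -2.41 for GH9B13 (limma adjusted p 0.0580), -1.84 for EXPB1 (0.0631), -2.68 for EXPB3 (0.148) and -0.53 for GH9B7 (0.0682). In the average over genotypes that fit called 5, without EXPA9 (-1.55, adjusted p 0.0729), EXPB3 (-2.46, 0.0642) and GH9C1 (-2.35, 0.0520).

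**Figure D4:**
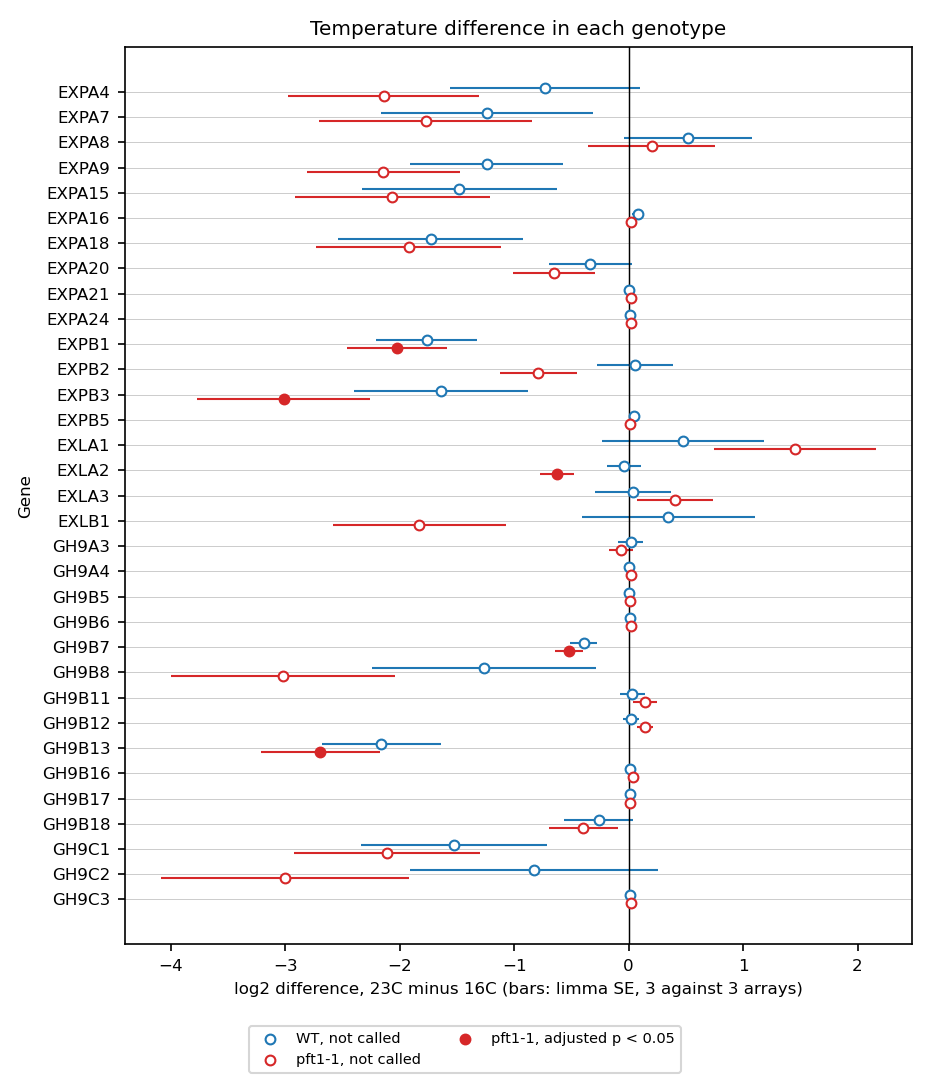
Log2 difference between 23C and 16C for each of the 33 genes in WT (blue) and pft1-1 (red), 3 arrays against 3, with bars of 1 limma SE and filled points where the adjusted p is under 0.05. The filled points are GH9B13, EXPB1, EXPB3, GH9B7 and EXLA2 in pft1-1, all to the left of 0, and the near-background genes lie on the zero line.

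Whether the temperature difference itself depends on the genotype was tested by the interaction. In limma 0 of the 33 members passed, as did 0% of all probe sets, and 1 member (EXLA2) had an unadjusted p under 0.05, against 5.54% of all. The calls in pft1-1 and their absence in WT are therefore not shown to be a difference between genotypes. The largest interactions were those of EXLB1 (-2.18, limma SE 1.07, 95% interval -4.60 to 0.24, adjusted p 0.938), GH9C2 (-2.17, SE 1.53) and GH9B8 (-1.76, SE 1.38). EXLA2 read 3.36 to 3.48 on all 6 WT arrays, 3.94, 4.15 and 3.56 in pft1-1 at 16C, and 3.34, 3.0 and 3.43 in pft1-1 at 23C. The 3 pft1-1 arrays at 16C were above every other array, and the interaction was -0.59 (limma SE 0.21, 95% interval -1.06 to -0.11, adjusted p 0.808).

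Between the genotypes at 23C, 0 of the 33 members were called in limma, where 0.022% of all probe sets were, and 2 had an unadjusted p under 0.05 (EXLB1 and GH9B12), against 7.6% of all. EXLB1, the expansin-like B gene, had the largest difference. It read 3.11, 5.49 and 6.17 in WT at 23C and 2.63, 2.12 and 2.06 in pft1-1 at 23C, so every pft1-1 array was lower, replicate A by the least. At 16C it read 4.81, 4.52 and 4.39 in WT and 4.87, 4.56 and 2.87 in pft1-1, where replicates A and B matched WT and replicate C was low. The difference at 23C was -2.65 (limma SE 0.76, 95% interval -4.36 to -0.95, unadjusted p 0.0066, adjusted p 0.471). Leaving out single arrays gave adjusted p from 0.0801 to 0.966. Groups did not overlap at 23C for 2 members that were lower in pft1-1, EXLB1 and GH9B18, against 3.75% of all probe sets, and for 2 that were higher, EXPA7 and GH9B12, against 4.2%. GH9B18 read 3.19 to 3.20 in WT and 3.19, 3.18 and 1.99 in pft1-1, so its mean difference came from replicate C. EXPA7 (0.19) and GH9B12 (0.16) had small differences near background.

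At 16C, 0 of the 33 members were called between the genotypes in limma, where 0.0352% of all probe sets were, and 2 had an unadjusted p under 0.05 (EXLA2 and EXPB2), against 4.62% of all. EXLA2 averaged 3.44 ± 0.03 in WT and 3.88 ± 0.30 in pft1-1 (SD, n = 3), a difference of 0.44 (limma SE 0.15, 95% interval 0.11 to 0.78, adjusted p 0.822). It was the only member whose groups did not overlap and were higher in pft1-1, against 4.31% of all probe sets. With array quality weights, it was called (0.60, limma adjusted p 0.0414). EXPB2 read 3.86 and 2.85 on pft1-1 replicates A and B at 16C and 2.14 to 2.3 on the other 10 arrays (difference 0.80, limma SE 0.33, adjusted p 0.9998). Averaged over the temperatures 0 members were called in limma, against 0.0572% of all probe sets, and 1 (EXLB1, -1.57, SE 0.53, adjusted p 0.652) had an unadjusted p under 0.05, against 6.24%. With 3 arrays per group the intervals of many genes are wide, so these counts do not show that the genotypes are alike.

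**Figure D5:**
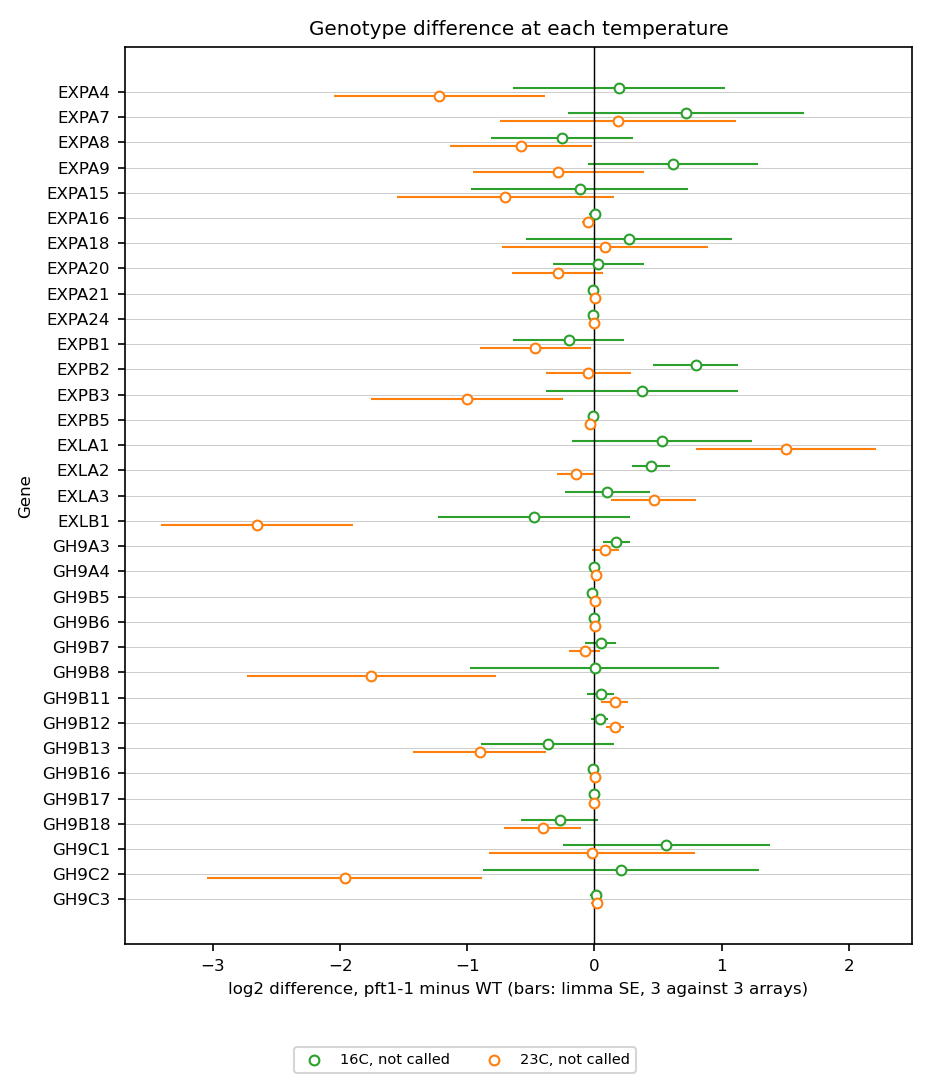
Log2 difference between pft1-1 and WT for each of the 33 genes at 16C (green) and 23C (orange), 3 arrays against 3, with bars of 1 limma SE. Open points mark differences that were not called, which is all of them, and EXLB1 at 23C lies farthest from 0, at -2.65.

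Other genes of wall extension were set beside these families from lists of symbols. Of 10 xyloglucan endotransglucosylase/hydrolase (XTH) genes, whose enzymes cut and rejoin the xyloglucans between cellulose fibrils, 3 fell and 1 rose between 16C and 23C averaged over the genotypes, against 12% of all probe sets called lower and 11.7% called higher. XTH19 fell by 3.18 on the log2 scale (limma SE 0.25, adjusted p 0.00013), XTH20 by 2.32 and XTH16 by 0.96, while EXGT-A3 rose by 1.39 (SE 0.25, adjusted p 0.0048). Of 8 genes for cellulose-synthase-like proteins and COBRA, which orients cellulose deposition, 0 were called in limma in that comparison. The pectin enzyme genes PMEPCRF (0.05), PME61 (0.03) and ADPG1 (0.07) were not called in that comparison (limma adjusted p 0.824, 0.831 and 0.393). The growth regulators IAA29, an auxin-response repressor that was near background, and HAT2, a homeobox gene induced by auxin, were not called. Of the 4 shoot markers 1 fell in pft1-1, LHCB4.3 (-2.08, limma SE 0.40, adjusted p 0.0088), against 9.27% of all probe sets called lower there. LHCB4.3 differed by -0.81 in WT (limma adjusted p 0.328) and by -1.45 averaged over the genotypes (adjusted p 0.0064). RCA (0.15), LHCB4.1 (0.05) and LHCB4.2 (-0.17) were not called in pft1-1.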

How the data were processed

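RNA (5 ug per sample, per the labels' protocols) was hybridised to 12 one-colour arrays. The deposited values are log2 expression, which the authors had normalised and summarised per probe set. Per the submitters' processing notes RMA and affy were used, with no versions. Of 22810 probe sets 64 controls were set aside, and 22746 were tested with no filter on low values. Of these 13513 had 1 annotated gene symbol, 503 several and 8730 none. Of the family genes, 4 probe sets shared by several genes were not used. The number of arrays limits the precision.

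Group means were fitted to all 12 arrays in limma 3.58.1 (R 4.3.3, lmFit, then eBayes; residual degrees of freedom 8, prior 1.05), with two-sided tests and Benjamini-Hochberg adjustment over all probe sets, in 7 comparisons. The submitters state biological replicates with RNA prepared independently. Members, lists and alternatives were chosen with earlier results of these data known. Genes were named if called in any comparison, if among the 3 largest differences without overlap in either direction of a pairwise comparison, if among the 3 largest interactions, or if known from textbooks. EXPA4, EXPA15, EXPA20, EXPB2 and GH9B11 were named after their values were seen.

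Replicate letters come from the titles. Residuals of arrays sharing a letter correlated at 0.421, 0.274 and 0.529 for temperature in WT, 0.200, 0.196 and 0.339 in pft1-1, 0.129, 0.473 and 0.158 between genotypes at 23C, and 0.357, -0.101 and 0.474 at 16C. These were positive except for letter B between genotypes at 16C. The main fit nevertheless held group means only and did not use this pairing, and the letter entered as a block only in an alternative. Alternatives were the letter as a block, an intensity trend, letters A and B without C, letter C as a block, the upper 60% of probe sets, quantile normalisation, median centring, array weights, 1 probe set per gene, the compared arrays only, and leaving out each array.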

Additional observations from a re-analysis of the deposited data

Results flagged for a closer look

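EXPA9 was picked out because its genotype difference pointed one way at 16C and the other way at 23C on every replicate letter. In pft1-1 minus WT it was 0.15, 1.56 and 0.14 at 16C and -0.36, -0.19 and -0.30 at 23C for letters A, B and C. The interaction was -0.90 (limma SE 0.95, adjusted p 0.947), so the difference between the temperatures did not pass the test. The letter B arrays of the 2 genotypes at 16C had a residual correlation of -0.101, so pairing by that letter is uncertain.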

How the results depend on the processing

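No called member changed direction under these alternatives, and the genotype counts at 23C and on average and the interaction count stayed at 0. At 16C between genotypes 1 member was called with array weights and 0 otherwise. For temperature in WT the count of 0 became 3 with the replicate letters as a block, 2 with letter C as a block, 1 with an intensity trend, 2 among the upper 60% of probe sets, 1 after quantile normalisation, 2 after median centring and 2 with array weights, and 0 to 2 without single arrays, reaching 2 without WT at 23C replicate C. In pft1-1 the count of 5 became 7 with the letter block, 1 with letters A and B alone, 8 among the upper 60% and 3 with only the compared arrays, and 2 to 9 without single arrays. The compared arrays alone lost EXLA2, EXPB3 and GH9B7 (limma adjusted p 0.109, 0.0523 and 0.0529) and gained GH9B8. EXLA2, EXPA18 and GH9C1 were not among the upper 60% and so were not tested there. In the average over genotypes that setting called EXPA4, EXPA15, GH9B8 and GH9C2 lower, which the main fit did not call. The average count of 8 became 5 with letters A and B alone and 5 with 1 probe set per gene, and 4 to 10 without single arrays. The replicate block moved the average count to 9. Median centring moved the median of all probe sets in pft1-1 from 0.04 to 0.14, and the share of calls that were higher from 47.6% to 57.6% there, from 35.5% to 46.3% in WT and from 49.4% to 61.0% on average, while all member calls were lower. The cause of these shifts was not tested. Signal near background limits EXPA7, EXPA18, GH9C1 and the 12 low members.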
